A study of Bos taurus with 6 samples.

Results

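The SPATA (spermatogenesis associated) and TEX (testis expressed) genes carry names given for where their RNA was found, not for a common descent or a common protein fold. They were taken here by symbol: every row of the gene expression table whose name began with SPATA or TEX followed by a digit, other than SPATA22, TEX11 and TEX12. The rule found 46 genes of the 47249 in the table, 22 SPATA genes and 24 TEX genes, each with a single row, and it used no measured value. The samples were testis tissue of untreated Wandong cattle (Bos taurus), a local breed, from 3 immature calves of 3 months and 3 andrologically mature bulls of 3 years, with 1 library of ribosomal RNA-depleted total RNA per animal. Both groups were of the same breed, and age was the difference that the labels named. Each value is an FPKM, the fragments mapped to a gene scaled by its length and by all mapped fragments of the library, so that levels can be compared between genes of a library. The FPKM of all genes summed to 1066184 in calf 1, 1098715 in calf 2, 587066 in calf 3 and 732130 to 776839 in the bulls. Levels compared between animals therefore also depend on how the libraries are scaled. The files hold no read counts, the depth behind a value is therefore unknown, and the number of animals sets the precision.

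In the adult seminiferous tubule, spermatogonia divide and enter meiosis as spermatocytes, and the round spermatids that result reshape into sperm. During this reshaping the acrosome forms from the Golgi apparatus, the nucleus is compacted, a connecting piece joins the head to the tail, and the tail is built on a microtubule axoneme with a sheath of mitochondria in its midpiece. The calf testis before puberty holds mostly Sertoli cells, interstitial cells and early germ cells. Many SPATA and TEX proteins belong to one of these steps, while others have roles in most tissues, such as ribosome maturation, autophagy and traffic between membranes. By textbook role, 26 symbols were grouped, and 23 of these had a row here: 6 of the sperm tail, 3 of the sperm head and neck, 3 of earlier germ cells and meiosis, and 11 with roles in many tissues. The other 23 genes were given no role.

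The library labelled calf 3 stood apart from the other calves, as was known from earlier results of these data. The marker lists were chosen with those results known. The summed FPKM of 10 neural markers (oligodendrocyte, astrocyte and neuron genes) was 13833 in calf 3. It was 13.5 to 18.5 in calf 1 and calf 2 and 12.9 to 20.3 in the bulls, and each of the 10 was highest in calf 3. The summed FPKM of 6 Leydig cell markers was 0.502 in calf 3 against 1389 in calf 1 and 1087 in calf 2, and CYP17A1 and CYP11A1, the steroid-producing enzymes, were listed at 0. The 7 Sertoli cell markers summed to 1787 in calf 1, 1475 in calf 2 and 444 in calf 3. In calf 3, WT1, FSHR and GATA4 were listed at 0, AMH and INHA stood under 1 and SOX9 at 13.7 (21.9 and 25.6 in calf 1 and calf 2), while CLDN11, which oligodendrocytes also express, stood at 429 (0.940 and 18.2) and made up nearly all of the sum. The markers of calf 1, calf 2 and the bulls were those of testis, and most Leydig and Sertoli markers of calf 3 went against its label, so each result is given with and without that library. The same lists described the age difference. The 6 round spermatid markers summed to 2.69, 2.17 and 0.428 in the calves and to between 369 and 436 in the bulls, and the 7 elongated spermatid markers to between 1.27 and 1.45 in the calves and between 13471 and 15620 in the bulls.

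SPATA and TEX genes were scarce in the calves and abundant in the bulls. The median member had an FPKM of 0.479 in calf 1, 0.708 in calf 2 and 0.409 in calf 3, and of 50.1, 53.9 and 57.0 in the 3 bulls. At an FPKM of 10 or more stood 4, 5 and 3 members in the calves and 38, 37 and 38 in the bulls. In all 3 bulls, 35 of the 46 members lay above the 90th percentile of all genes in the library, and 15 had a bull mean of 100 or more. In bulk tissue, fewer cells of a type and less RNA per cell cannot be told apart, and this holds for each difference below.

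The bulls were compared with the calves by limma on log2(FPKM + 1). Genes that reached an FPKM of 1 in 3 or more of the 6 libraries were tested, 18115 in all, and a gene was called at a Benjamini-Hochberg adjusted p under 0.05 and a change of at least 2-fold. The filter was passed by 45 members, TEX28 being the exception. Of these, 39 were called higher in the bulls, beside a background of 35.7% of all genes tested, and 0 were called lower, beside 9.61%. Among the 45, 3 had a negative log2 fold change and 1 of them, TEX261, an unadjusted p under 0.05. The median log2 fold change was 4.83 over the members tested and 0.43 over all genes tested. Since a gene near 0 in calves passes the filter only through the bulls, these counts describe the members that passed and not a test of the families. The SPATA genes gave 19 called of 22 tested with a median of 4.72, and the TEX genes 20 of 23 with a median of 5.14. Without calf 3, again 39 members were called higher and 0 lower, beside 37.9% and 13.6% of all genes, and the median was 4.72. The 2 sets of 39 differed by a single gene each way: SPATA5 fell below the fold limit and SPATA2 passed it.

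**Figure D1:**
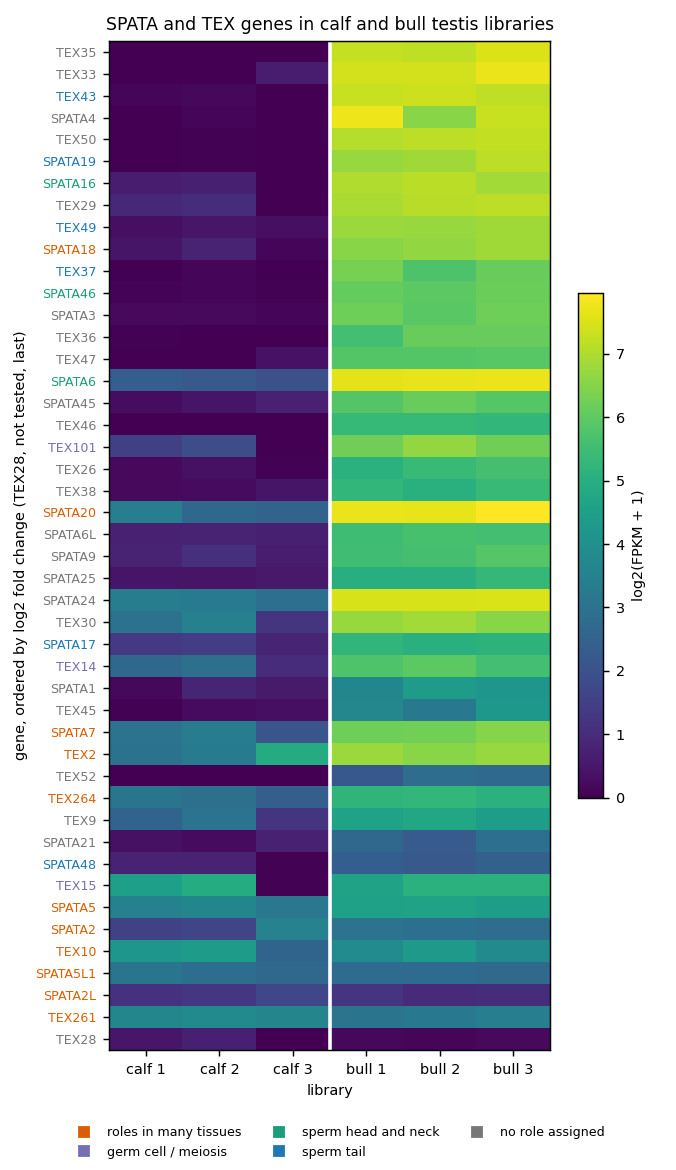
Level of each SPATA and TEX gene, as log2(FPKM + 1) on the colour scale, in the 3 calf libraries (left of the white line) and the 3 bull libraries (right), with genes ordered by log2 fold change and their names coloured by role. Most rows are dark in the calves and bright in the bulls, while TEX15, TEX10, TEX261, SPATA5L1 and SPATA2L differ little between calf 1, calf 2 and the bulls.

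The sizes of the differences were uneven. Of the 39 called members, 20 had a log2 fold change of 5 or more, a class that held 2.69% of all genes tested; 12 lay between 3 and 5 and 7 lay under 3. The pseudocount of 1 understates the change of genes that are low in calves. In every library of the bulls, 39 of the 45 members tested stood above every calf, beside 46.1% of all genes tested, and 1 member, TEX261, stood below every calf, beside 21.3%. A gene under an FPKM of 1 in all 3 calves passes the filter only if all 3 bulls reach 1, so its separation was fixed by the filter. This held for all but TEX28 of the 26 members under 1 in all 3 calves, so the count of 39 is no test. Quantile normalization, which gives the libraries the same distribution, moved the median log2 fold change of all genes from 0.43 to −0.13 and that of the members to 4.13. Under it 38 members were called higher, beside 25.9% of all genes, and 0 lower, beside 21.6%. Median-of-ratios size factors gave 38 higher, beside 33.7%, and 0 lower, beside 11.8%. Quantile normalization without calf 3, an alternative chosen after seeing the data, gave 37 higher, beside 27.2%, and 1 lower (TEX261), beside 27.4%.

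**Figure D2:**
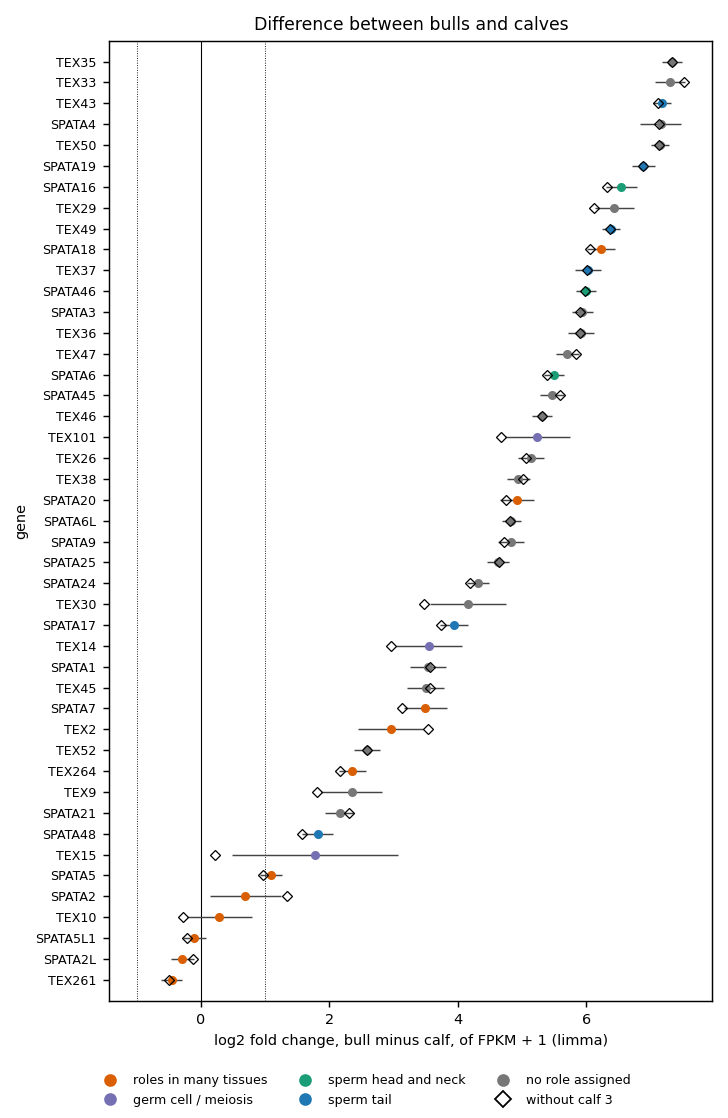
Log2 fold change of FPKM + 1, bulls minus calves, for the 45 members tested, with points coloured by role, bars of 1 standard error from limma, open diamonds for the value without calf 3, a solid line at 0 and dotted lines at a 2-fold change in either direction. Values run from −0.46 for TEX261 to 7.33 for TEX35, and the diamonds lie farthest from the points for TEX15, TEX30, SPATA2, TEX14, TEX2, TEX10, TEX101 and TEX9.

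All 6 genes of the sperm tail were called higher in the bulls, beside 35.7% of all genes tested, with a median log2 fold change of 6.21 (6.19 without calf 3). TEX43, a protein on the inner side of the tail microtubules, had an FPKM of 0.0986, 0.130 and 0 in the calves and 154, 162 and 147 in the bulls. No calf came near the bulls, and its log2 fold change was 7.17 (SE 0.14, adjusted p = 2.53e-06, and 7.12 without calf 3). SPATA19, a protein of the midpiece mitochondria, was listed at 0, 0.0360 and 0.0188 in the calves and at 106, 113 and 144 in the bulls (log2 fold change 6.89, SE 0.17, adjusted p = 3.36e-06, and 6.89 without calf 3). The microtubule inner proteins TEX49 and TEX37 had bull means of 109 ± 3.60 and 66.7 ± 13.7 FPKM (SD, n = 3), with no calf above 0.406 for TEX49 and 0.0720 for TEX37, and both were called with and without calf 3. SPATA17, a calmodulin-binding protein of the axoneme, was already present in the calves, at 1.58, 1.71 and 0.755, and reached 36.4, 32.2 and 34.2 in the bulls (log2 fold change 3.93, SE 0.22, adjusted p = 3.61e-05, and 3.74 without calf 3). SPATA48, also a microtubule inner protein, was the lowest of the group, at 0.721, 0.734 and 0.0328 in the calves and 4.20, 3.64 and 4.58 in the bulls (log2 fold change 1.82, SE 0.24, adjusted p = 0.00121, and 1.57 without calf 3). The tail genes thus differed widely among themselves in bull level. Each had every bull above every calf, beside 46.1% of all genes tested. The filter had fixed this for all but SPATA17, since the others were under 1 in every calf.

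The 3 genes of the sperm head and neck were called higher as well, beside 35.7% of all genes tested. SPATA16 and SPATA46 were under 1 in every calf, so they passed the filter only through the bulls. SPATA16, a Golgi protein of acrosome formation, stood at 0.564, 0.634 and 0 in the calves and at 129, 139 and 114 in the bulls (log2 fold change 6.55, SE 0.24, adjusted p = 8.57e-06, and 6.32 without calf 3). SPATA46, a protein beneath the acrosome that takes part in head shaping, stood at 0.0449, 0.0804 and 0.0247 in the calves and at 66.7, 61.0 and 70.7 in the bulls (log2 fold change 6.0, SE 0.15, adjusted p = 3.36e-06, and 5.98 without calf 3). SPATA6, a protein of the connecting piece, was the second most abundant member in the bulls, at 199, 202 and 211, and was present in all 3 calves, at 4.15, 3.66 and 2.93. Its bull mean was 52.2 times the mean of calf 1 and calf 2, and its log2 fold change was 5.49 (SE 0.16, adjusted p = 4.51e-06, and 5.39 without calf 3). Its paralog SPATA6L was several times lower in the bulls, at 44.0, 48.8 and 47.3, and at 0.673, 0.710 and 0.639 in the calves, with a log2 fold change of 4.83 (SE 0.14, adjusted p = 5.12e-06, and 4.82 without calf 3).

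Of the 3 genes of earlier germ cells and meiosis, TEX14 and TEX101 were called higher and TEX15 was not. TEX14 is needed for the intercellular bridges that keep dividing germ cells joined. Its FPKM was 5.43, 6.64 and 1.03 in the calves and 53.4, 61.3 and 47.1 in the bulls, a log2 fold change of 3.56 (SE 0.52, adjusted p = 0.00166) that was 2.96 without calf 3. TEX101, a surface protein of germ cells held by a lipid anchor, was at 1.86, 2.71 and 0 in the calves and 74.1, 100.4 and 73.7 in the bulls, a log2 fold change of 5.24 (SE 0.51, adjusted p = 0.000302) that was 4.67 without calf 3. For both genes the lowest value of the 6 libraries was that of calf 3.

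TEX15, which acts in meiotic recombination and in silencing of transposons guided by piRNAs, had a different pattern. It was the most abundant member in calf 1 and calf 2, at 21.6 and 29.7 FPKM, and stood at 23.2, 33.1 and 33.5 in the bulls, so that calf 2 lay inside the range of the bulls. In calf 3 it was at 0.0309. The log2 fold change over all libraries was 1.77 (SE 1.29, adjusted p = 0.287), and without calf 3 it was 0.21 (SE 0.21, adjusted p = 0.389). The bull mean, 29.9 ± 5.81 FPKM, was 1.17 times the mean of calf 1 and calf 2. The missed threshold does not show that TEX15 is equal at the 2 ages. The 6 spermatogonia markers summed to 118 and 146 in calf 1 and calf 2, to 233 in calf 3 and to between 260.05 and 270.07 in the bulls. Most of the bull sum was DDX4, at 155.8, 160.5 and 155.6, and DMRT1 stood at 80.2, 79.7 and 72.2. ZBTB16, KIT, GFRA1 and UCHL1 were lower in every bull than in calf 1 and calf 2. ZBTB16 stood at 2.71, 3.16 and 2.81 in the bulls and KIT at 6.37, 5.06 and 7.03. In calf 3, 3 of the 6 were the highest of the calves: UCHL1, which neurons also express, at 201 (25.6 and 30.0 in calf 1 and calf 2), ZBTB16 at 17.2 (14.9 and 10.2) and GFRA1 at 6.38 (1.70 and 2.63). The other markers were lower there, KIT at 8.90 (16.5 and 13.6), DDX4 at 0.0152 (14.0 and 20.2) and DMRT1 at 0.0938 (44.9 and 68.9). The part of these differences in the values of TEX14, TEX15 and TEX101 was not tested.

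The 23 genes with no role given included 5 of the 8 largest rises, those of TEX35, TEX33, SPATA4, TEX50 and TEX29. All 22 that were tested were called higher, beside 35.7% of all genes tested. Their median log2 fold change was 5.04 (range 2.16 to 7.33), and the median did not move at this precision without calf 3. The bull means of the 23 ran from 0.130 FPKM for TEX28 to 183 for TEX33, and in 20 of the 23 the mean of calf 1 and calf 2 was under 1. A gene under 1 in the calves passes the filter only through the bulls, so the count of 22 is a description and no test. TEX35 (ENSBTAG00000004941; chromosome 16, 59915002 to 59925320) was listed at 0 in every calf and at 152, 147 and 184 in the bulls (adjusted p = 2.68e-06, and 4.85e-07 without calf 3). Its value of 7.33 on the log2(FPKM + 1) scale is the largest among the members and, with all calves at 0, depends on the pseudocount. TEX46 and TEX52 were also listed at 0 in all 3 calves, and in the bulls they stood at 39.5, 38.9 and 37.6 and at 3.55, 6.19 and 5.65. No fold is given for these 3 genes.

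TEX33 (chromosome 5, 75415497 to 75433378) was listed at 0 in calf 1 and calf 2, at 0.569 in calf 3 and at 169, 171 and 209.8 in the bulls (log2 fold change 7.30, SE 0.23, adjusted p = 5.92e-06, and 7.52 without calf 3). SPATA4 was at 0.0175, 0.0798 and 0 in the calves and 217, 92.1 and 157 in the bulls (log2 fold change 7.16, SE 0.32, adjusted p = 1.72e-05, and 7.14 without calf 3), and TEX50 at 0, 0.0267 and 0 in the calves and 134, 142 and 149 in the bulls (log2 fold change 7.14, SE 0.14, adjusted p = 2.53e-06, and 7.14 without calf 3). Both were nearly silent in calves, but the bulls differed more from each other for SPATA4. TEX29 was at 0.832, 1.07 and 0 in the calves and 121, 138 and 143 in the bulls (log2 fold change 6.43, SE 0.30, adjusted p = 2.00e-05, and 6.11 without calf 3). At the other end, SPATA21, an EF-hand protein, was at 0.294, 0.186 and 0.659 in the calves and 5.25, 3.88 and 6.51 in the bulls (log2 fold change 2.16, SE 0.23, adjusted p = 0.000431, and 2.30 without calf 3).

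A few genes of this group were already expressed in the calves. SPATA24 stood at 9.20, 8.51 and 6.53 FPKM in the calves and at 175, 176 and 183 in the bulls, where it was the fourth most abundant member (log2 fold change 4.31, SE 0.17, adjusted p = 1.06e-05, and 4.18 without calf 3). Its bull mean, 178 ± 4.01 FPKM (SD, n = 3), was 20.1 times the mean of calf 1 and calf 2. TEX30 stood at 7.07, 10.02 and 1.28 in the calves and at 106, 115 and 91.7 in the bulls (log2 fold change 4.16, SE 0.59, adjusted p = 0.00151, and 3.47 without calf 3). TEX9 stood at 4.92, 7.23 and 1.29 in the calves and at 23.5, 26.5 and 20.8 in the bulls (log2 fold change 2.35, SE 0.48, adjusted p = 0.00704, and 1.81 without calf 3). In both genes calf 3 was far below the other calves.

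TEX28, on chromosome X (37333943 to 37341870), was the member below the filter and the only member on a sex chromosome. It was listed at 0.393, 0.639 and 0 in the calves and at 0.126, 0.107 and 0.157 in the bulls, so the bulls lay below calf 1 and calf 2 and above calf 3, all under an FPKM of 1. It was not tested.

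The 11 genes with roles in many tissues split into those that rose with the rest and those that changed little. Their median log2 fold change was 1.09, against 4.83 for all members tested and 0.43 for all genes tested, and it was 1.34 without calf 3. Of the 11, 6 were called higher, beside 35.7% of all genes tested, 0 lower, beside 9.61%, and 5 were not called. In calf 1 and calf 2 this group was well expressed, with 10 of the 11 at an FPKM of 1 or more in both.

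**Figure D3:**
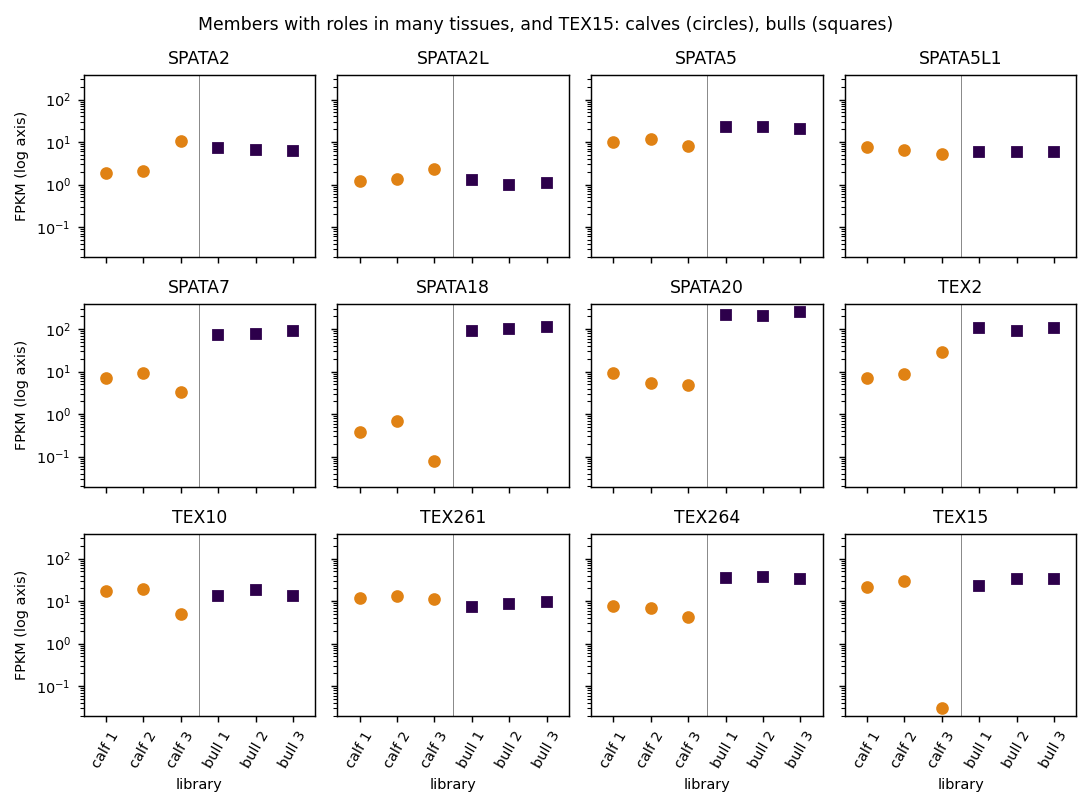
FPKM on a log axis of the 11 members with roles in many tissues and of TEX15, in 3 calf libraries (circles) and 3 bull libraries (squares), 1 point per library. Bulls stand far above calves for SPATA7, SPATA18, SPATA20, TEX2 and TEX264, TEX261 is lower in every bull than in every calf, and calf 3 departs from the other calves upward for SPATA2 and TEX2 and downward for TEX10 and TEX15.

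SPATA20, a thioredoxin-like protein, was the most abundant member in the bulls, at 209, 203 and 248 FPKM, against 9.52, 5.39 and 4.74 in the calves (log2 fold change 4.92, SE 0.26, adjusted p = 3.23e-05, and 4.75 without calf 3). Its bull mean was 29.5 times the mean of calf 1 and calf 2. SPATA18, a protein of mitochondrial quality control, was the only member of this group under 1 in all calves, at 0.370, 0.707 and 0.0807, and stood at 92.0, 101 and 112 in the bulls (log2 fold change 6.23, SE 0.21, adjusted p = 7.43e-06, and 6.06 without calf 3). SPATA7, known from the connecting cilium of photoreceptors, stood at 7.14, 9.24 and 3.33 in the calves and at 72.4, 75.5 and 91.2 in the bulls (log2 fold change 3.50, SE 0.34, adjusted p = 0.000308, and 3.14 without calf 3). TEX264, a receptor for autophagy of the endoplasmic reticulum, stood at 7.50, 6.73 and 4.35 in the calves and at 35.6, 37.4 and 32.8 in the bulls (log2 fold change 2.36, SE 0.21, adjusted p = 0.000235, and 2.16 without calf 3). For these 4 genes every bull was above every calf, as for 46.1% of all genes tested, and for SPATA18 the filter had fixed this. TEX2, a lipid transfer protein of the endoplasmic reticulum, also separated the groups, but calf 3 stood at 28.7 beside 7.0 in calf 1 and 8.58 in calf 2, and the bulls at 107, 92.6 and 104. Its log2 fold change was 2.96 (SE 0.50, adjusted p = 0.00332) and 3.54 without calf 3.

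The AAA ATPases SPATA5 and SPATA5L1, which work together in the maturation of the large ribosomal subunit, differed in level and in response. SPATA5 stood at 10.2, 11.5 and 8.13 in the calves and at 22.6, 23.0 and 20.6 in the bulls, so the groups did not overlap and the bull mean was 2.03 times that of calf 1 and calf 2. Its log2 fold change of 1.09 (SE 0.17, adjusted p = 0.00245) passed the fold limit narrowly, and it did not pass without calf 3 (0.96, adjusted p = 0.000439) or under quantile normalization (0.52, adjusted p = 0.0712). SPATA5L1 stood at 7.54, 6.34 and 5.33 in the calves and at 5.81, 5.95 and 5.76 in the bulls, inside the range of the calves (log2 fold change −0.10, SE 0.18, adjusted p = 0.645, and −0.21 without calf 3). Its bulls were the closest to each other of any member, with a coefficient of variation (CV) of 1.65%. TEX10, a scaffold of a complex in ribosome maturation, stood at 17.0, 19.7 and 4.87 in the calves and at 13.4, 18.8 and 12.9 in the bulls. Its groups overlapped, and its log2 fold change was 0.29 (SE 0.51, adjusted p = 0.655) with calf 3 and −0.29 (SE 0.18, adjusted p = 0.203) without it.

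SPATA2, an adaptor that brings the deubiquitinase CYLD to the linear ubiquitin ligase, changed its call when calf 3 was left out. It stood at 1.87 and 2.14 in calf 1 and calf 2, at 10.5 in calf 3 and at 7.12, 6.51 and 6.17 in the bulls. With all libraries its log2 fold change was 0.69 (SE 0.55, adjusted p = 0.325), and without calf 3 it was 1.34 (SE 0.14, adjusted p = 0.000255) and was called. Calf 3 was the highest of all 6 libraries, and it was also the library with the high neural markers, whose part in this value was not tested. Its paralog SPATA2L was low throughout, at 1.22, 1.39 and 2.27 in the calves and 1.31, 0.992 and 1.07 in the bulls, also highest in calf 3, and was not called (log2 fold change −0.29, SE 0.19, adjusted p = 0.236, and −0.12 without calf 3). TEX261, a membrane protein of transport between the endoplasmic reticulum and the Golgi, stood at 11.7, 12.9 and 11.2 in the calves and at 7.34, 8.38 and 9.68 in the bulls. Every bull was below every calf, but the log2 fold change of −0.46 (SE 0.16, adjusted p = 0.0568) missed both limits. Without calf 3 it was −0.50 with an adjusted p of 0.0216, still short of a 2-fold change.

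The order of the members was therefore not the same at the 2 ages. In calf 1 and calf 2, the highest mean levels were those of TEX15 (25.6 FPKM), TEX10 (18.4), TEX261 (12.3), SPATA5 (10.9) and SPATA24 (8.85). In the bulls they were those of SPATA20 (220.0), SPATA6 (204), TEX33 (183), SPATA24 (178) and TEX35 (161). The first 4 of the calf order held their order in both calves. In the bulls SPATA20 was above SPATA6, and SPATA6 above TEX33, in each of the 3 animals, by little in bull 2 for the former pair and in bull 3 for the latter. TEX33 and SPATA24 changed places between bulls, as did SPATA24 and TEX35, so the order within these pairs was not settled. No test was run on the order. SPATA24 alone was among the top 5 of both. An FPKM of 1 or more in both calf 1 and calf 2 was found for 18 members, of which 10 had roles in many tissues and the others were TEX14, TEX15, TEX101, SPATA6, SPATA17, SPATA24, TEX9 and TEX30. In contrast, 26 members were under 1 in all 3 calves, and 15 were listed at 0 in at least 1 of them.

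Fewer genes were detected in calf 3 than in the other calves, among the SPATA and TEX genes as among all genes. In it 12 members were listed at 0, against 7 in calf 1 and 6 in calf 2, and 15 reached an FPKM of 1, against 18 and 20. Members above 0 numbered 34 in calf 3, against 39 and 40, beside 27164 of all genes, against 32151 and 31697. Calf 3 was the lowest of the calves for 27 of the 46 members (58.7%), beside 46.7% of all genes tested, and the highest for 10 (21.7%), beside 38.1%. It was more than 2-fold below both other calves for 16 members (34.8%), beside 23.7% of all genes tested. Among the 18 members at 1 or more in calf 1 and calf 2, it was the lowest for 15 (83.3%), and for 8 of these it was more than 2-fold below both. Choosing genes by their level in calf 1 and calf 2 favours calf 3 as the lowest, and no share of all genes chosen in that way was computed. The 2 of the 18 that stood more than 2-fold above both in calf 3 were TEX2 and SPATA2. These shares are a description of 1 library and carry no test. The summed spermatocyte markers were at 14.8 and 21.4 in calf 1 and calf 2 and at 3.13 in calf 3.

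The 3 bulls varied little for most members. The median CV over the 3 bulls was 11.5% for the members tested and 13.4% for all genes tested. A CV over 25% was found for 5 members: SPATA4 (40.1%), TEX45 (38.3%), TEX52 (27.1%), SPATA1 (25.6%) and SPATA21 (25.3%). Of these only SPATA4 was abundant. TEX45 stood at 0.0379, 0.165 and 0.259 in the calves and at 11.8, 8.22 and 17.8 in the bulls (log2 fold change 3.50, SE 0.29, adjusted p = 0.000162, and 3.57 without calf 3), so that the difference between the ages was far larger than that between the bulls. The members were spread over 21 chromosomes, with no more than 4 on any, and chromosomes 3, 7 and 16 held 4 each.

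Transcripts were then examined, since a gene value in these tables is the sum of its transcripts. This held for all 46 members in every library, within a tolerance of 0.001 FPKM. The members had 162 transcripts, with 13 members having 1 and 33 having more, and 78 transcripts passed the same filter. In the same fit over all 23212 transcripts tested, 67 of the 78 were called higher in the bulls, beside 34.8% of all transcripts, and 1 was called lower, beside 9.37%. Without calf 3, 68 were called higher, beside 36.1%, and 1 lower, beside 13.1%. By kind, 44 of 53 tested Ensembl transcripts were called higher. So were 17 of 19 transcripts that the authors' assembly added without a gene-based name, 2 of 2 with an overlapping name and 4 of 4 with an antisense name. Those with an overlapping or antisense name also carry identifiers of the assembly.

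**Figure D4:**
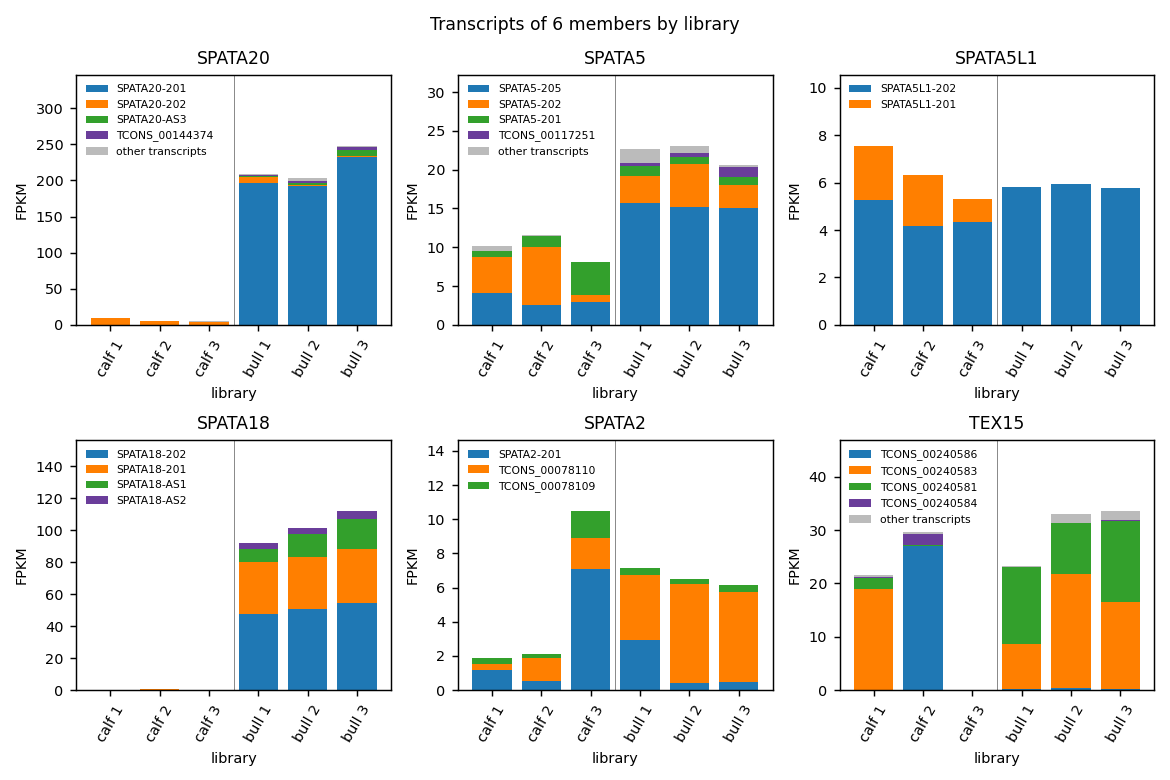
FPKM of each transcript, stacked to the value of its gene, in 3 calf and 3 bull libraries for SPATA20, SPATA5, SPATA5L1, SPATA18, SPATA2 and TEX15. SPATA20-201 fills the bars of the bulls and SPATA20-202 those of the calves, SPATA5L1-201 is listed above 0 in the calves only, and calf 1 and calf 2 show different assembled transcripts of TEX15.

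SPATA20 had different main transcripts at the 2 ages. SPATA20-201 (chromosome 19, 36171006 to 36178359) stood at 0.0101, 0.324 and 0 in the calves and at 196, 193 and 232 in the bulls, a log2 fold change of 7.56 (SE 0.19, adjusted p = 4.00e-06, and 7.49 without calf 3). SPATA20-202, which shares the start coordinate and ends at 36179075, stood at 9.51, 5.06 and 4.61 in the calves and at 8.15, 0.762 and 1.60 in the bulls. SPATA20-201 was 93.6% to 95.1% of the gene's FPKM in the bulls and 0% to 6.02% in the calves, whereas SPATA20-202 was 94.0% to 99.9% in the calves and 0.376% to 3.89% in the bulls. The level of SPATA20-202 itself was not called (log2 fold change −1.03, SE 0.65, adjusted p = 0.231, and −1.20 without calf 3), bull 1 lying inside the range of the calves. Without bull 1 it was called lower, at −1.73 (adjusted p = 0.0227). The shares of the 2 transcripts did not overlap between the groups; no test was run on shares.

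The single transcript called lower was SPATA5L1-201, at 2.29, 2.18 and 1.01 in the calves and listed at 0 in all 3 bulls (adjusted p = 0.00159, and 0.000110 without calf 3). The other transcript of the gene, SPATA5L1-202, stood at 5.26, 4.16 and 4.32 in the calves and at 5.81, 5.95 and 5.76 in the bulls, and was not called (log2 fold change 0.30, SE 0.17, adjusted p = 0.194, and 0.27 without calf 3). SPATA5L1-202 made up all of the gene's FPKM in the bulls and 65.6% to 81.1% in the calves. The value of the gene, which was not called, thus joined a transcript that fell and a transcript that was not called. In SPATA5, SPATA5-205 stood at 4.04, 2.54 and 2.98 in the calves and at 15.7, 15.2 and 15.0 in the bulls (log2 fold change 1.98, SE 0.19, adjusted p = 0.000340, and 1.95 without calf 3), while SPATA5-202 stood at 4.76, 7.50 and 0.919 in the calves and at 3.38, 5.51 and 3.01 in the bulls (log2 fold change 0.10, SE 0.58, adjusted p = 0.902, and −0.53 with an adjusted p of 0.164 without calf 3). The share of SPATA5-205 went from 22.1% to 39.6% in the calves to 66.0% to 73.0% in the bulls. SPATA7 was similar in that SPATA7-202 took 19.5% to 48.3% of the gene in the calves and 78.2% to 80.7% in the bulls. The named transcripts of SPATA20 and of SPATA5L1 share their start coordinate, those of SPATA5 their end, and SPATA7-201 and SPATA7-202 share both. Reads may therefore not be divided between them with certainty, and these shares are less firm than the gene values.

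SPATA2 and TEX15 each held a transcript whose call differed from that of the gene. For SPATA2, the assembled transcript TCONS_00078110 stood at 0.329, 1.302 and 1.83 in the calves and at 3.83, 5.81 and 5.27 in the bulls and was called higher (log2 fold change 1.52, SE 0.33, adjusted p = 0.0101, and 1.76 without calf 3). The high value of calf 3 came from SPATA2-201, at 7.10 there, 1.17 and 0.559 in the other calves and 2.91, 0.417 and 0.457 in the bulls. For TEX15, the assembled transcript TCONS_00240581 was called higher, at 2.12, 0.0447 and 0 in the calves and 14.5, 9.42 and 15.3 in the bulls (log2 fold change 3.22, SE 0.50, adjusted p = 0.00239, and 2.93 without calf 3). TEX15 in calf 1 was 87.4% TCONS_00240583, which was listed at 0 in calf 2, and in calf 2 it was 91.3% TCONS_00240586, which was listed at 0 in calf 1. These assembled transcripts share their start coordinate and end within a few bases of each other, so reads may not be divided between them with certainty, and the sum over the gene is the firmer value.

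The antisense transcripts belonged to 7 members, 16 transcripts in all, and their FPKM is included in the values of the genes. For SPATA18 they made up 17.5% of the gene's FPKM in the bulls, the largest share. SPATA18-AS1 was listed at 0 in the 3 calves and at 8.24, 14.4 and 18.9 in the bulls (adjusted p = 0.000173, and 0.000419 without calf 3). The shares in the other 6 genes were 4.50% for SPATA5, 3.33% for SPATA3, 3.16% for SPATA20, 1.91% for TEX47, 1.65% for TEX261 and 0.228% for TEX30. In TEX47, an antisense transcript accounted for all of the 0.319 FPKM in calf 3. With the antisense transcripts subtracted from every gene, an alternative chosen after seeing the data, 39 of the 45 members tested were called higher, beside 35.3% of the 17945 genes then tested, and 0 lower, beside 10.1%, and SPATA18 had a log2 fold change of 6.0.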

How the data were processed

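The authors filtered reads of strand-specific libraries, removed ribosomal RNA reads with Bowtie2, mapped them with TopHat2, assembled transcripts with StringTie and deposited FPKM values per gene and per transcript, without replicate pooling; the tool that computed FPKM is not given in the sources used here. The Methods name a UMD build, while all 46 members overlapped the RefSeq locus of the same symbol in ARS-UCD2.0, so the build of the coordinates is not settled. Here, limma 3.58.1 in R 4.3.3 was fitted to log2(FPKM + 1) with a mean-variance trend, using every gene or transcript that reached an FPKM of 1 in 3 or more of 6 libraries. Adjustment (Benjamini-Hochberg) covered the whole table tested. Calls needed an adjusted p under 0.05 and a 2-fold change. The p-values are two-sided. They set the difference between the groups against the spread among animals within a group, which limma moderates over all rows tested. With all libraries this spread includes calf 3. The scripts were tested on simulated data. Low FPKM values did not fall on steps of whole reads (at most 3.6% of low genes shared the commonest ratio), so counts were not recovered. Members, role groups and marker lists were chosen with earlier results of these data known. Full statistics were given for the 8 largest rises, the 5 highest members in bulls and in calf 1 and calf 2, the role groups, and members whose call or direction changed without calf 3 or under quantile normalization; other members were added to show ranges. The alternatives were other pseudocounts, filters, scalings, weights, a replicate block and leaving out each library. Promoter and protein sequences were not analysed here.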

Additional observations from a re-analysis of the deposited data

How the results depend on the processing

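Over 17 alternative settings, 38 of the 45 members tested kept their call and direction. Members called higher numbered 37 to 39, with 39 in each of the fits that left out 1 library, and 0 were called lower except under quantile normalization without calf 3 (chosen after seeing the data), which called 1, TEX261, at −1.06. Transcripts called lower numbered 2 under quantile normalization, which added TEX261-201, and 1 to 2 on leaving out each library, the second being SPATA20-202 without bull 1. The 7 members that moved were SPATA2, SPATA5, SPATA5L1, SPATA48, TEX10, TEX15 and TEX261. TEX10 turned to −0.29 under quantile normalization, −0.21 with array weights and −0.96 under quantile normalization without calf 3, and ran from −0.29 to 0.62 on leaving out each library. TEX15 turned to −0.56 under quantile normalization without calf 3 and SPATA5L1 ran from −0.21 to 0.0044 on leaving out each library. SPATA5 also lost its call under size factors (0.95), array weights (0.98) and quantile normalization without calf 3 (0.35), and SPATA48 under the last of these (0.96); SPATA2 gained a call with array weights (1.298). The causes were not tested. For calves and bulls with the same number, deviations from the group means correlated at 0.0246 to 0.0341, and for the other pairs at −0.0487 to 0.0221. From 3 animals per group these values cannot settle whether animals of the same number shared anything else, and this was not tested. With the replicate number as a replicate block, 39 members and 68 transcripts were called, 67 of these transcripts higher and 1 lower. With 3 animals per group, 1 atypical calf library and no counts, small changes and levels near 0 are the least certain values.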
